A study of Mus musculus with 2 samples.

Results

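Promoter peaks are stretches of open chromatin at the places where genes begin. Of the 203545 peaks in the matrix, 39982 (19.6%) lay on chromosomes 1 to 19 and within 1 kb of the start interval of a gene, which is the span from the first to the last of its annotated transcript starts. The rule used coordinates only, and no measured value. It took in 34954 peaks that overlapped a start interval and 5028 that lay 1 to 1000 bases outside it. The name promoter peak fitted only some of them, because the start interval of a gene with several starts can be long. Of the members, 23679 (59.2%) lay within 1 kb of an annotated start itself and are called start-near peaks. The other 16303 (40.8%) lay between the starts of a gene, farther than 1 kb from any of them, and are called between-start peaks. The between-start peaks came from the intervals of 1951 genes with a median interval of 125 kb. Fgfr2, a fibroblast growth factor receptor, had 277 of them in an interval of 2857 kb.

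The study joined RNA and open chromatin in the same nuclei with 10x Multiome, to relate chromatin and transcripts in stromal cells of young bone marrow. The animals were littermates of both sexes, 21 days old and pooled, with the genotype Prrx1-cre; R26R(tdTomato/+). Cells that carried the red reporter tdTomato were sorted from their femurs without the distal growth plates, and 15000 nuclei were loaded, giving 1 RNA library and 1 ATAC library. Prrx1-cre drives recombination in the limb mesenchyme, so the sort was meant for skeletal cells, and there was no control group. With 1 library of each kind nothing was tested between animals, and the intervals given cover counting error only.

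In an ATAC library the transposase cuts where DNA is not wrapped in nucleosomes, and promoters are usually the most open places in the genome. Promoters of mammals fall into 2 broad kinds. CpG-rich promoters hold many CG dinucleotides, are mostly unmethylated and serve genes that most cells need, together with many developmental regulators. CpG-poor promoters serve genes of particular cell types more often, and are opened by transcription factors of that lineage. An open promoter is needed for transcription but does not by itself show that a gene is transcribed.

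The sequences just upstream of 7 starts are shown because the results turn on their peaks. They comprise a promoter open in every class and 6 promoters with counts mainly in 1 or 2 classes, and were picked after their values were seen. They were read from mm10 on the strand of the gene, end at the base before the annotated start and hold no annotated exon. Capitals mark matches on either strand to 5 of 10 short motifs that were searched. The TATA box was searched as TATAAA where the general factors of transcription can bind. The CCAAT box was searched by the letters of its name. The GC box, bound by factors such as Sp1, was searched as GGGCGG on both strands. The GATA motif of blood cell factors was searched as AGATAA. The RUNX motif of bone and blood factors was searched as TGTGGT. The ETS motif (searched as CCGGAAG) had no match in these stretches. AP-1, the site of Fos and Jun, was searched as TGACTCA and had none either. The same was true of the CRE, searched as TGACGTCA. It was true of the E-box that clock factors use, searched as CACGTG. It was also true of the PU.1 motif, searched as GAGGAAGT.
Polr2a, chr11:69758638-69758837, minus strand: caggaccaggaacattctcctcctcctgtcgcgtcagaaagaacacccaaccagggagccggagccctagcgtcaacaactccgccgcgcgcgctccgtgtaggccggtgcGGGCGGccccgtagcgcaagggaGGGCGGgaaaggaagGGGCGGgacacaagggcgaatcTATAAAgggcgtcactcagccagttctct
Cxcl9, chr5:92328080-92328279, minus strand: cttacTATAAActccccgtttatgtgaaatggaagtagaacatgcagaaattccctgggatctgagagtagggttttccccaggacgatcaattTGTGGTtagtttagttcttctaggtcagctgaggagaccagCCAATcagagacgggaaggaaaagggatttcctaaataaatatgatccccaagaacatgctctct
Lipc, chr9:70952227-70952426, minus strand: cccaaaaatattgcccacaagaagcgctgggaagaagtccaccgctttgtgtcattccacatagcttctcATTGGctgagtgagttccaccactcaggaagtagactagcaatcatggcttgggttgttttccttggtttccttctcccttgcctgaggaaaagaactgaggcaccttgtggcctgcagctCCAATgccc
Col1a2, chr6:4505370-4505492, plus strand: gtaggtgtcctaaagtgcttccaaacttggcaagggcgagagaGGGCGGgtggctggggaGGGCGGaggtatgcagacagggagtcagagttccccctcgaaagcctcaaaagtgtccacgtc
Kel, chr6:41704340-41704539, minus strand: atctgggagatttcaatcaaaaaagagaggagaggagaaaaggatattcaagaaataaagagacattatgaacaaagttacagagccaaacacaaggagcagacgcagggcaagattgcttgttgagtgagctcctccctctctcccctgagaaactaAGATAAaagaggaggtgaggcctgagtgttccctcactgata
Pglyrp1, chr7:18884480-18884679, plus strand: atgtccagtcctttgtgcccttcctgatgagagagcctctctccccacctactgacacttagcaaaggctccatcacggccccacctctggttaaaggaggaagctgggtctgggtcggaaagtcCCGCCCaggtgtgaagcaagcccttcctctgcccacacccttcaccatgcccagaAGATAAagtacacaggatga
Pou2af1, chr9:51213508-51213707, plus strand: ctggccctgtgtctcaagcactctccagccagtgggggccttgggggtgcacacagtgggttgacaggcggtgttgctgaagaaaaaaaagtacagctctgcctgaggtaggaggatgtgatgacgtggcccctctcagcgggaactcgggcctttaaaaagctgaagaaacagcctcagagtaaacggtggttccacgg
Polr2a, which encodes the largest subunit of RNA polymerase II, had 3 GC boxes and a TATA box 29 to 24 bases before its start, and its 200 bases held 19 CG dinucleotides. The upstream bases of Cxcl9, Lipc, Kel and Pglyrp1 held 1 to 3 each, and those of Pou2af1 held 6 and none of the listed motifs. The GATA letters stood 42 to 37 bases before the start of Kel.

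The classes of nuclei were gated on RNA of markers, and the 5 used for comparisons were reticular-like (360 nuclei), osteoblast-like (101), erythroid-like (73), granulocyte-like (57) and B-lymphoid-like nuclei (39). They are called by these names without the ending from here on. Reticular cells are the Cxcl12- and Lepr-expressing stroma of the marrow, and osteoblasts build bone. Chondrocyte-like (13), mural-like (27) and macrophage-like nuclei (18) were too few for the comparisons, and 712 of the 1411 nuclei passed no gate. The gate cut a continuous score, and 89 nuclei near the reticular limit, 58 near the osteoblast limit, 18 near the granulocyte limit, 7 near the erythroid limit and 2 near the B-lymphoid limit lay within 1 unit of it. Nuclei with markers of blood cells were thus present in a sort on a limb mesenchyme reporter. The nuclei held a median of 1544 RNA molecules (UMIs) and 23964 ATAC counts, and the class sums ranged from 795884 ATAC counts in granulocyte to 12985067 in reticular nuclei.

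Promoter peaks held 54.3% (exact binomial 95% interval 54.2 to 54.3%) of the 38750597 ATAC counts of the nuclei, from 19.6% of the bases in peaks. Nearly all of it belonged to start-near peaks, with 49.9% of the counts, and between-start peaks held 4.37%. Start-near peaks carried 967 counts per kb, against 123 in between-start peaks, 135 in the other autosomal peaks and 108 in distal peaks. Distal peaks lay over 50 kb from any start interval, and both they and the other autosomal peaks can lie inside genes. In density the between-start peaks therefore resembled the other autosomal and distal peaks and not start-near peaks. They resembled them in sequence too, since 50.6% of start-near peaks were CpG-rich, against 0.773% of between-start, 1.66% of other and 0.514% of distal peaks. A peak was called CpG-rich when its central 500 bases had a GC content of at least 50% and an observed to expected CpG ratio of at least 0.6. Density was highest at the start itself. Start-near peaks that covered a start had 1177 counts per kb, those up to 250 bases away 382, those beyond that and up to 500 bases away 320, and those farther off 261.

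The counts were unevenly spread over the start-near peaks. The 11970 CpG-rich ones held 79.3% of all counts in promoter peaks at a median of 1168 counts per peak, and the 11709 CpG-poor ones held 12.7% at a median of 95. The 3058 peaks that served starts on both strands, here called bidirectional, had a median of 1261 counts, against 275 in start-near peaks with starts on 1 strand only. Barcodes that were not kept as nuclei had 53.1% of their counts in promoter peaks.

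The share of counts in promoter peaks differed between the classes by more than counting error. It was 50.8% in reticular and 52.1% in osteoblast nuclei, 63.2% in B-lymphoid, 64.0% in granulocyte and 74.8% in erythroid nuclei, and the exact intervals of these 5 shares, which cover counting error only, did not overlap. The order of neighbours depended on how nuclei were chosen. At a mitochondrial limit of 20% the granulocyte share was 62.2% and the B-lymphoid share 63.4%, with the erythroid share at 69.5%, and with Leiden clusters as classes osteoblast and reticular nuclei had 50.87% and 50.9%. The 3 small classes had 47.0% (chondrocyte), 52.6% (mural) and 55.0% (macrophage). All 4 classes of mesenchymal markers thus lay below the 3 blood classes used for comparisons, and the erythroid share was the highest. Among single erythroid nuclei the middle 50% ranged from 74.2 to 79.9%, and among reticular nuclei from 48.2 to 53.3%. Distal peaks moved the other way, holding 3.06% of the counts in erythroid and 11.7% in reticular nuclei. Depth moved with the share: erythroid and granulocyte nuclei held a median of 12630 and 12281 ATAC counts, and reticular nuclei 37923. Over all nuclei the deeper ones had 52.4% and the shallower ones 62.5% of their counts in promoter peaks. Within classes, each divided at its own median depth, these values were 50.1% and 59.2% in osteoblast, 73.9% and 78.5% in erythroid, 63.0% and 66.5% in granulocyte, 62.8% and 64.0% in B-lymphoid and 50.6% and 51.4% in reticular nuclei. The classes were not compared at 1 depth, and the part of depth in their differences was not tested.

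**Figure D1:**
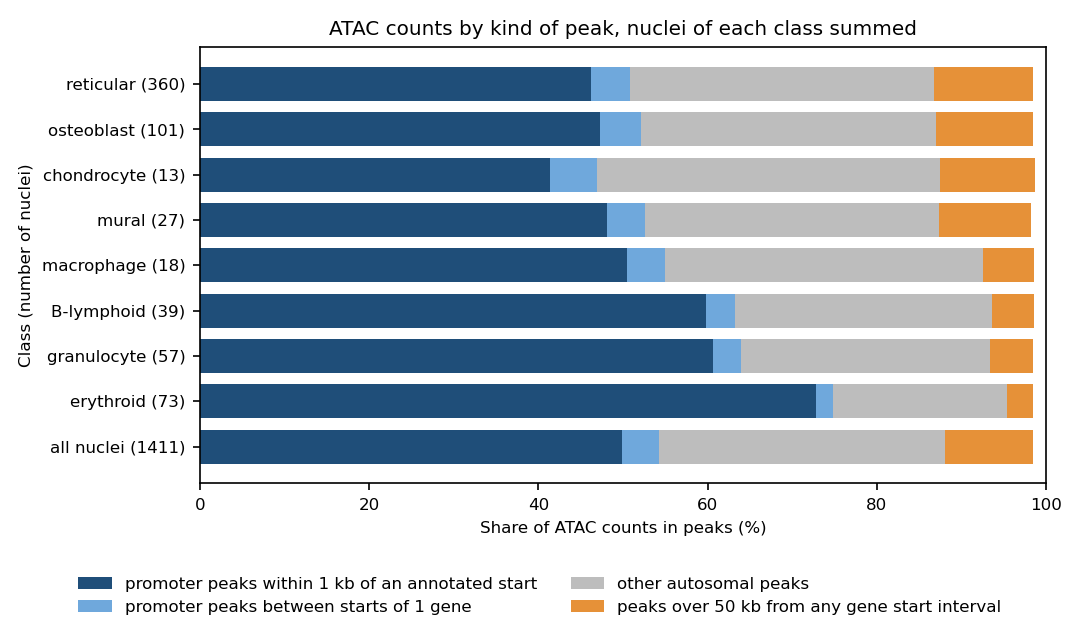
Share of ATAC counts in percent (horizontal axis) that fell in start-near promoter peaks (dark blue), between-start promoter peaks (light blue), other autosomal peaks (gray) and distal peaks (orange), for the summed nuclei of each class (vertical axis, number of nuclei in brackets). Promoter peaks took 50.8% in reticular and 74.8% in erythroid nuclei, and the part missing to the right end belonged to peaks off chromosomes 1 to 19.

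The peaks with most counts were led by 3 that stood far above the others. The peaks of Gm26917 (chr17:39842969-39846450, 610899 counts) and AY036118 (chr17:39847457-39848891, 210271 counts) lay beside Gm42418, a lincRNA gene model with 1095917 of the 4025855 UMIs of these nuclei. Its UMIs stayed in the totals to which RNA is scaled below. The third was a between-start peak of Filip1l (chr16:57391127-57392094, 19027 counts). These 3 held 2.17% of all ATAC counts, from 0.341% in granulocyte to 2.15% in osteoblast nuclei, and without them the share in promoter peaks was 53.3%. The next in order, with 5530 to 6974 counts, were the peaks of Gt(ROSA)26Sor, Wipi1, Gpbp1, 4932412D23Rik, Abtb1, Dnpep and Mex3c, all open in every class. Gt(ROSA)26Sor is the locus that carries the reporter in these mice, and its peak (chr6:113076339-113077539) also covered the start of Setd5 on the other strand. On the CPM scale, in which each class is scaled to the same total of ATAC counts, its level was 152 CPM in reticular, 170 in osteoblast, 232 in erythroid, 281 in granulocyte and 205 in B-lymphoid nuclei.

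Most genes with RNA had a start-near peak. Of 20519 autosomal protein-coding genes, 15402 (75.1%) had 1, against 45.3% of 4971 lincRNA genes and 58.5% of 2909 antisense genes. Among protein-coding genes the share followed RNA: 26.2% of those with 0 UMIs, 69.1% with 1 to 3, 93.1% with 4 to 30, 99.2% with 31 to 300 and 99.3% with more than 300. The median count in the peak stood in the same order for these 5 groups, at 64.0, 117, 562.5, 1387 and 1688. Protein-coding genes with at least 31 UMIs thus almost always had a called peak at the start, whereas 1460 without any UMI also had a peak.

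Whether promoters were shared among cell types was asked by thinning each class to 795884 counts and calling a peak open in a class with at least 5 counts. Of all promoter peaks, 8454 (21.1%) were open in all 5 classes, against 4.77% of all autosomal peaks. Start-near peaks were open in all 5 classes in 35.5% of cases, and between-start peaks in 0.356%, other autosomal peaks in 0.837% and distal peaks in 0.164%. CpG content divided the start-near peaks: 63.9% of CpG-rich but 6.37% of CpG-poor ones were open in all 5 classes. Among CpG-poor start-near peaks 26.3% were open in 1 class only, against 5.47% of CpG-rich ones. The bidirectional peaks were like the CpG-rich ones, with 65.1% open in all 5 classes.

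Peaks with more counts pass a minimum more easily, so peaks of like total were compared. Among peaks with 50 to 99 counts over the 5 thinned classes, 46.2% of CpG-rich and 28.8% of CpG-poor start-near peaks were open in all 5, against 10.2% of 266 between-start and 6.71% of 343 distal peaks. Among peaks with at least 100 and fewer than 200 counts the shares were 89.9%, 79.4%, 53.8% of 39 and 59.2% of 49. The order of start-near over between-start and distal peaks held in both ranges, and at the higher total the between-start and distal shares rested on few peaks. In these ranges start-near peaks were thus open in all classes more often than between-start or distal peaks of like count.

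**Figure D2:**
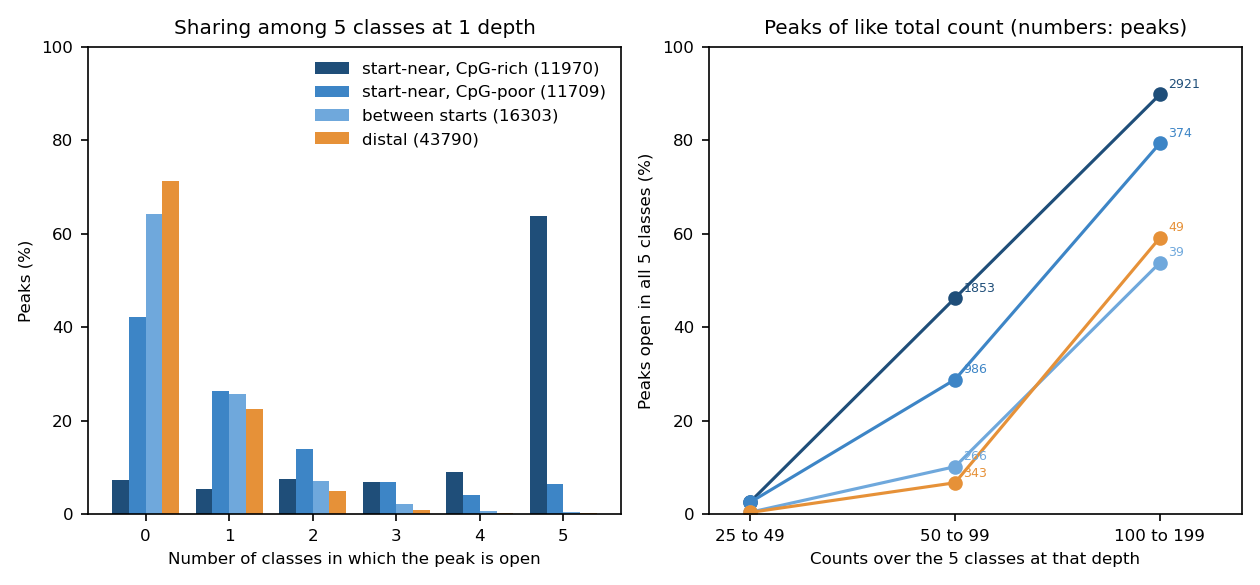
Left, percent of peaks (vertical axis) by the number of the 5 classes in which they were open at 1 depth (horizontal axis), for CpG-rich and CpG-poor start-near, between-start and distal peaks. Right, percent of peaks open in all 5 classes within ranges of total thinned count, with the number of peaks beside the points of the 2 higher ranges. CpG-rich start-near peaks peaked at 5 classes (63.9%), and distal peaks at 0 (71.3%).

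Pairs of classes shared start-near peaks widely. Of the start-near peaks open in reticular nuclei, 88.6% were open in osteoblast nuclei too, and 87.7% the other way round. For reticular and erythroid nuclei, 68.7% of the reticular and 91.2% of the erythroid ones were shared. Between-start peaks were shared less, with 36.9% of the reticular and 34.2% of the osteoblast ones open in both. Fewer start-near peaks were open in erythroid nuclei at this depth (10262) than in granulocyte (11370), B-lymphoid (12940), reticular (13611) or osteoblast nuclei (13747). All 3 blood classes but neither stromal class opened 131 start-near peaks (0.553%), and both stromal classes but no blood class opened 1187 (5.01%). These shares were 0.166% and 3.09% of between-start, 0.238% and 3.15% of other autosomal and 0.0343% and 2.96% of distal peaks. The counts 131 and 1187 are not alike, since the first asks for all 3 blood classes and the second only for both stromal ones.

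Gene lists differed in how often their start peaks were open in all 5 classes. Over all start-near peaks this share was 35.5%, and over the CpG-rich ones 63.9%. Of 22 genes used by every cell, 21 had a start peak open in all 5 classes. All 30 ribosomal protein genes with a peak, 14 of 14 circadian clock genes, 17 of 19 immediate early genes and 16 of 17 cell cycle genes were open in all classes. In contrast 2 of 14 bone transcription factors (Atf4 and Tcf7), 3 of 15 reticular transcription factors (Foxc1, Cebpb and Cebpd), 1 of 22 limb and Hox genes (Hoxc10), 3 of 21 blood transcription factors (Runx1, Lmo2 and Zfpm1) and 1 of 23 skeletal matrix genes (Comp) were. Smooth muscle regulators had 4 of 12, near the share of all start-near peaks, cartilage transcription factors 3 of 14 and signalling genes 3 of 25. The 17 neural transcription factors with a peak had 0, and 14 of 19 autosomal genes of other organs, such as albumin (Alb) and the heart myosin Myh6, had no start-near peak at all. Of the genes with a peak, 20 of the 22 limb and Hox genes and 16 of the 17 neural genes were CpG-rich. Their peaks had medians of 293.5 and 151 counts, against 1677.5 for the genes used by every cell. The parts of CpG content and of peak count in this order were not tested.

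Each class was next set against the other 4 summed, on the CPM scale with 0.5 counts added, for the 69283 peaks on any chromosome with at least 50 counts, and a peak was called at 2-fold. Reticular nuclei held most counts of the sum, so the ratios of the other 4 classes are mainly ratios to reticular nuclei. Among all peaks tested, 38.8% were called higher and 16.4% lower in reticular nuclei, 15.2% and 35.1% in osteoblast, 10.7% and 67.1% in erythroid, 9.55% and 59.2% in granulocyte, and 12.1% and 58.2% in B-lymphoid nuclei. Among the 16911 start-near peaks tested, 13.1% were called higher in reticular, 7.48% in osteoblast, 26.0% in erythroid, 12.8% in granulocyte and 14.8% in B-lymphoid nuclei, and 10.8%, 12.5%, 40.5%, 34.3% and 24.7% were called lower in the same order. Start-near peaks were thus called higher less often than all peaks in the stromal classes and more often in the 3 blood classes. The 4731 between-start peaks tested went with the other peaks, with 46.7% called higher in reticular and 4.90% in erythroid nuclei. A peak at the minimum of 50 counts without any in the class is called lower, though few are expected there in the shallow classes. The median log2 ratio of all peaks was -2.67 in erythroid and -2.09 in granulocyte nuclei. Start-near peaks had a median of 355 counts over all nuclei and distal peaks 43. Neither these sets nor the gene lists below were matched by count, and the part of count in the calls was not tested.

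The size of these shares depended on the scale, above all in erythroid nuclei, whose promoter share was highest. With CPM of promoter counts only, start-near peaks called higher made up 14.97% of the erythroid calls in either direction in place of 39.1%, 16.2% of the granulocyte calls in place of 27.3%, and 66.4% of the reticular calls in place of 54.8%. For all promoter peaks the number called higher in erythroid nuclei was 1552 in place of 4628. With the other classes weighted equally it was 2853, and the number in osteoblast nuclei was 4123 in place of 2215. In erythroid nuclei 33.2% of CpG-rich but 12.3% of CpG-poor start-near peaks were called higher, and the CpG-rich ones called numbered 3682 on the scale of all counts and 944 on that of promoter counts. The median log2 ratio of CpG-rich start-near peaks was 0.53 on the scale of all counts and 0.02 on that of promoter counts. In the other direction, 4.90% of CpG-rich but 28.7% of CpG-poor start-near peaks were called higher in reticular nuclei, and 4.12% and 13.9% in osteoblast nuclei.

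In reticular nuclei the promoters with the largest joint ratio of peak and RNA were those of Gm6249, Cxcl9 and Ms4a4d. Cxcl9, a chemokine induced by interferon gamma, had a peak at chr5:92327642-92328545 with 213 counts in 83 reticular nuclei, or 16.4 CPM (exact Poisson 95% interval 13.4 to 19.8). The peak had 0.844 CPM in osteoblast nuclei and 0 counts in the 3 blood classes, where 0 counts allow up to 6.29 (erythroid), 9.27 (granulocyte) and 6.05 CPM (B-lymphoid). RNA is given as RNA CPM, with the UMIs of each class scaled in the same way, and that of Cxcl9 was at 115 RNA CPM in reticular nuclei, 6.44 in erythroid and 0 in the other 3 classes. Gm6249, a predicted gene, had 21.3 CPM at its peak and 222 RNA CPM in reticular nuclei, against 1.12 CPM and 1.99 RNA CPM in osteoblast nuclei and 0 elsewhere. The 5 peaks of highest ratio alone were 3 between-start peaks, of Cacna2d3, Frmd4a and 1700029J03Rik, and start-near peaks of G930045G22Rik and of Acaca. These 5 had 22.5 to 25.8 CPM in reticular nuclei and 0 counts in every other class. Acaca, the first enzyme of fatty acid synthesis, had RNA in all 5 classes (31.4 to 130 RNA CPM), and for G930045G22Rik no RNA was counted in any.

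In osteoblast nuclei Lipc, Rhbdl2 and Adgrd1 came first. Lipc, a lipase best known from the liver, had a peak at chr9:70951919-70952836 with 37.97 CPM (29.5 to 48.2) in osteoblast nuclei, 0.154 in reticular and 1.71 in erythroid nuclei. Its RNA stood at 247 RNA CPM in osteoblast, 1.13 in reticular and 10.5 in B-lymphoid nuclei. Adgrd1, an adhesion receptor coupled to G proteins, had 30.4 CPM at its peak in osteoblast and 7.54 in granulocyte nuclei, the latter from 1 nucleus. Mlip, named for its binding of lamin in muscle, had 33.7 CPM in 41 of 101 osteoblast nuclei and 0.154 CPM in reticular nuclei, with RNA at 88.4 and 6.79 RNA CPM. Between-start peaks of Mymk, Ptar1 and Sept9 and a start-near peak of 1700019D03Rik completed the 5 highest ratios, at 14.1 to 16.6 CPM in osteoblast nuclei.

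Erythroid nuclei had the promoters of Kel, Trim10 and Tspo2 at the top, all genes known from red cells. Kel, the Kell blood group enzyme, had a peak at chr6:41703908-41704796 with 67.4 CPM (48.0 to 91.9) from 31 erythroid nuclei, 1 count in reticular nuclei and 0 in the other 3 classes. Its RNA stood at 1482 RNA CPM in erythroid nuclei and at 5.66 or less elsewhere. Trim10, which is needed for late red cell development, had 110.0 CPM in erythroid and 0.616 in reticular nuclei, with RNA at 187 and 0 RNA CPM. Peaks of Znfx1, F530104D19Rik and Sowaha and between-start peaks of Hemgn and Nav2 had the highest ratios, at 49.5 to 84.4 CPM. Of these, Hemgn, a nuclear protein of blood cells, and Sowaha had RNA mainly in erythroid nuclei (696 and 168 RNA CPM), while the RNA of Nav2 was at 297 RNA CPM in reticular and 6.44 in erythroid nuclei. A peak high in a class thus did not always lie beside RNA of the same class.

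In granulocyte nuclei Pglyrp1, Ifitm6 and Adam8 led. Pglyrp1, a protein of neutrophil granules that binds bacterial walls, had a peak at chr7:18884111-18885005 with 64.1 CPM (41.7 to 94.2) in granulocyte nuclei, 3.28 in B-lymphoid, 0.077 in reticular and 0 in osteoblast and erythroid nuclei. Its RNA stood at 532 RNA CPM in granulocyte nuclei and at 6.44 or less elsewhere. The 5 highest ratios, at Mirt2, Cd33, Mcemp1, Tmem40 and Trem3, were all start-near and had 65.3 to 121 CPM in granulocyte nuclei. Cd33 and Trem3 are receptors of myeloid cells, and Trem3 had RNA at 224 RNA CPM there and 0.993 in osteoblast nuclei as its only other class.

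In B-lymphoid nuclei Pou2af1, 1700027J07Rik and Rhoh came first. Pou2af1, a B cell coactivator of octamer-binding factors, had a peak at chr9:51213099-51213985 with 91.8 CPM (69.3 to 119) in 29 of 39 B-lymphoid nuclei, 1.41 in osteoblast and 0.154 in reticular nuclei, and RNA at 429 RNA CPM against 1.13 in reticular nuclei. Rhoh, a signalling protein of blood cells, had 36.1 CPM in B-lymphoid, 7.54 in granulocyte and 3.41 in erythroid nuclei, with RNA at 586 RNA CPM in B-lymphoid nuclei. The highest ratios were at 1700122C19Rik, Bsnd and the light chain segment Igkv15-103, and at between-start peaks of Pnpla8 and Slc2a9. For the first 3 no RNA was counted in any class. The 5 peaks had 42.6 to 52.4 CPM. Bsnd, a chloride channel subunit of the kidney, is an example of an open start without a counted transcript. The B-lymphoid nuclei held 95531 UMIs together, so RNA at a low level could be missed.

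**Figure D3:**
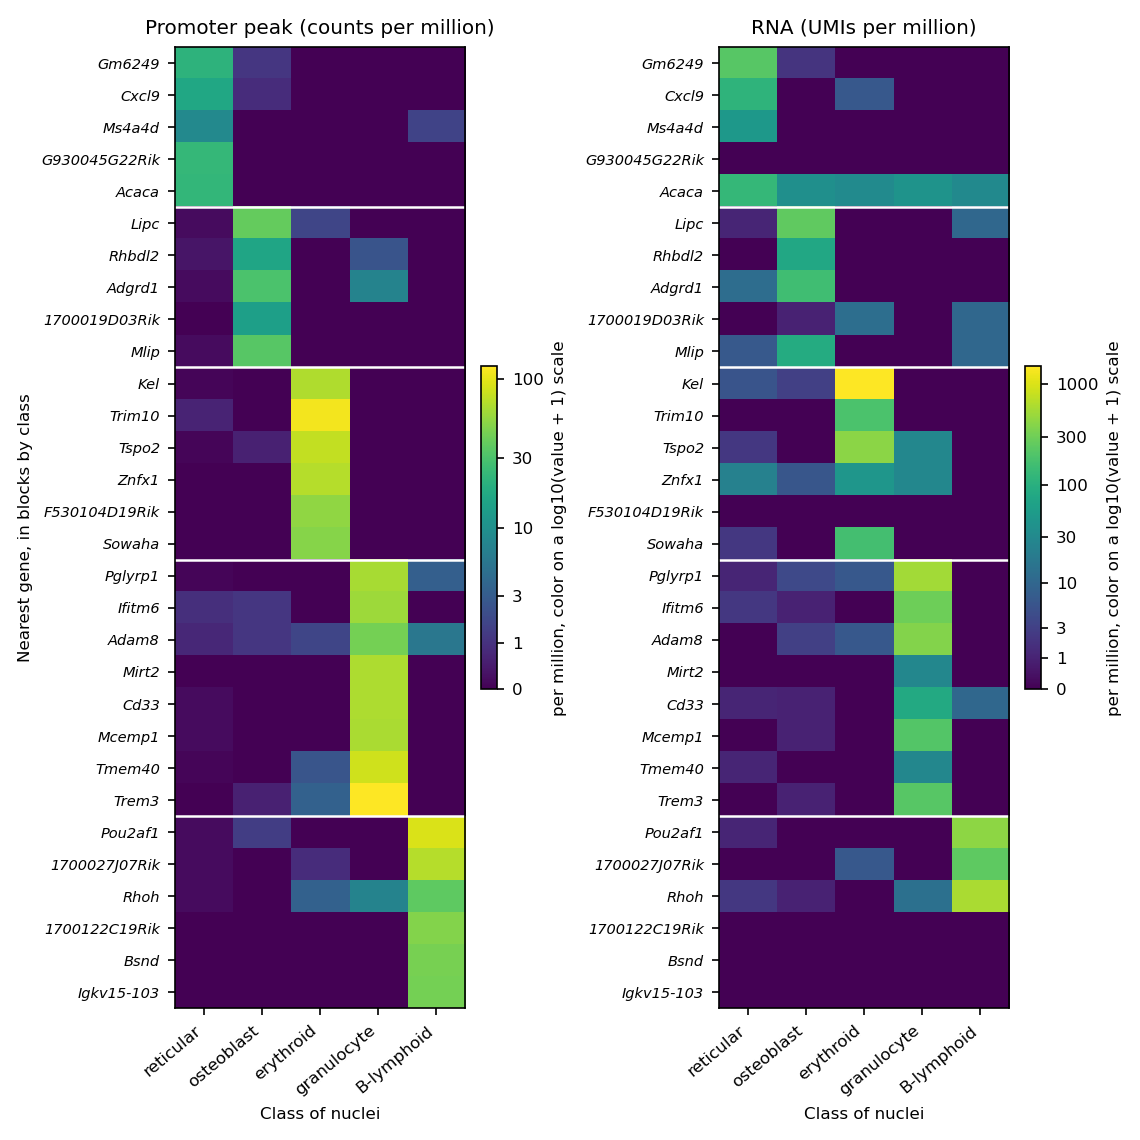
ATAC CPM at the promoter peak (left) and RNA CPM of the nearest gene (right) in the 5 classes (columns) for the start-near peaks named for each class (rows, in blocks from reticular at the top to B-lymphoid at the bottom), colored on a log10(value + 1) scale with a bar of its own for each side. Counts of each block stood mainly in its own class, as for Kel with 67.4 CPM in erythroid nuclei. G930045G22Rik, F530104D19Rik, 1700122C19Rik, Bsnd and Igkv15-103 had no RNA counted in any of the 5.

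Of 15 reticular factors with a peak, 7 (Ebf3, Foxc1, Pparg, Cebpa, Nr2f2, Zfp423 and Prdm16) were called higher in reticular nuclei and 0 lower, at a median log2 ratio of 0.94, against -0.25 over all start-near peaks. In erythroid nuclei 14 of the 15 were called lower, at a median of -3.47, where the median of all start-near peaks was -0.25 as well. Of all start-near peaks tested, 13.1% were called higher in reticular and 40.5% lower in erythroid nuclei. Ebf3, a factor that keeps marrow reticular cells in their state, is also a gating marker, and its peak had 81.5 CPM in reticular, 43.9 in osteoblast, 13.1 in B-lymphoid, 5.12 in erythroid and 5.03 in granulocyte nuclei. Cebpa, a factor of fat and myeloid cells, had 79.2, 58.8, 8.19, 3.41 and 27.6 CPM in the same order. Ebf1, which B cells and stroma both use, had a peak at chr11:44618038-44618826 with 18.8 CPM in B-lymphoid, 12.9 in osteoblast and 9.70 in reticular nuclei, and 0 counts in erythroid and granulocyte nuclei. Another peak of Ebf1 (chr11:44616759-44617627) had more counts, with 47.5, 38.8 and 34.3 CPM in these 3 classes, 7.54 in granulocyte and 1.71 in erythroid nuclei. Both of these peaks of Ebf1 were thus open in B-lymphoid and stromal nuclei.

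Of 14 bone factors 12 were called lower in erythroid, 10 in granulocyte and 11 in B-lymphoid nuclei, against 40.5%, 34.3% and 24.7% of all start-near peaks. Only Dlx3 and Msx2 were called higher in osteoblast nuclei, and Msx1, Zfhx4 and Hand2 in reticular nuclei, against 7.48% and 13.1% of all start-near peaks. Dlx5, a homeobox factor of bone, had 33.7 CPM in osteoblast and 38.2 in reticular nuclei. Over the 14 the median log2 ratio was 0.49 in osteoblast and 0.51 in reticular nuclei. The osteoblast ratio is mainly a ratio to reticular nuclei, while the reticular ratio is to osteoblast and blood nuclei together. These medians therefore cannot tell whether the list leaned to either stromal class.

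Blood factors could be called higher in several blood classes. Of 19 tested, 10 were called higher in erythroid, 6 in granulocyte and 13 in B-lymphoid nuclei, and 14 were called lower in reticular nuclei. The shares of all start-near peaks tested were 26.0%, 12.8% and 14.8% called higher and 10.8% called lower in the same order. Klf1, the main activator of globin genes and a gating marker, had 35.0 CPM in erythroid nuclei, 0.693 in reticular, 0.819 in B-lymphoid and 0 in the others. Lyl1 had 154 CPM in erythroid, 32.7 in granulocyte and 66.4 in B-lymphoid nuclei, and 0.616 or less in the stromal classes. Spib, a factor of B cells, had 61.5 CPM in B-lymphoid nuclei and at most 3.77 in any other of the 5.

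Limb and Hox genes, which record the position of a cell in the body, were called lower in erythroid nuclei in 21 of 21 tested cases and lower in granulocyte nuclei in 17, against 40.5% and 34.3% of all start-near peaks. Prrx1, the gene whose enhancer drives the Cre, had 17.2 CPM in osteoblast, 9.01 in reticular, 1.64 in B-lymphoid and 0 in erythroid and granulocyte nuclei. Meis1, which also acts in blood stem cells, had 26.4 CPM in osteoblast, 25.3 in reticular and 23.8 in B-lymphoid nuclei and 0 in the other 2. Of the neural genes, Neurog2 and Pou4f1 had 0 UMIs in these nuclei but 17.2 and 26.2 CPM in B-lymphoid nuclei, and 14 of the 17 had at most 3 UMIs.

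Genes used by all cells showed smaller ratios. The 30 ribosomal protein promoters had a median log2 ratio of -0.40 in reticular and 1.04 in erythroid nuclei, where 16 were called higher on the scale of all counts. Cell cycle genes stood above the ribosomal ones in erythroid nuclei, with 16 of 17 called higher at a median of 1.63. On that scale 26.0% of all start-near peaks and 33.2% of the CpG-rich ones were called higher in erythroid nuclei. Mki67, a marker of dividing cells, had 171 CPM at its promoter in erythroid, 138 in granulocyte, 86.0 in B-lymphoid, 41.9 in osteoblast and 36.0 in reticular nuclei, and its RNA stood at 3157 RNA CPM in erythroid and 43.0 in reticular nuclei. In erythroid nuclei 11 of 19 immediate early genes and 7 of 14 clock genes were called lower, against 40.5% of all start-near peaks, so the clock genes lay near that share. Klf4 had 12.8 CPM in erythroid and 7.54 in granulocyte nuclei against 72.9 in reticular and 108 in B-lymphoid nuclei. Arntl, a core clock factor, had 12.8 CPM in erythroid and 83.7 in reticular nuclei. Both of these promoters were open in every class, at unlike levels.

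Promoters of skeletal matrix genes were called lower in erythroid nuclei in 17 of 19 tested cases, against 40.5% of all start-near peaks, and 9 were called higher in osteoblast nuclei, against 7.48%. Col1a2, a chain of the main collagen of bone, had 48.4 CPM (38.7 to 59.7) at chr6:4505058-4505932 in osteoblast and 19.5 (16.2 to 23.2) in reticular nuclei, 1.26 in granulocyte and 0 in erythroid and B-lymphoid nuclei. Its RNA was nonetheless counted in every class, at 61067 RNA CPM in osteoblast, 6350 in reticular, 4994 in erythroid, 7365 in granulocyte and 3475 in B-lymphoid nuclei. Sparc, another abundant bone protein, showed the same picture with 5.97 CPM at its promoter and 825 RNA CPM in erythroid nuclei. Free RNA, as counted in barcodes with few ATAC counts, was not subtracted from these values. The median excess of osteoblast marker UMIs over free RNA was -3.16 in erythroid, -2.04 in granulocyte and -4.78 in B-lymphoid nuclei. The part of free RNA in the Col1a2 and Sparc values of the blood classes was not tested. Col5a1 had 53.1 CPM in reticular, 48.7 in osteoblast and at most 5.12 in any blood class. Among signalling genes 20 of 23 tested were called lower in erythroid nuclei, against the same 40.5%, and Bmp6, a ligand of the BMP family, had 25.3 CPM in reticular and 8.16 in osteoblast nuclei with RNA at 721 and 16.9 RNA CPM.

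The promoters of the gating markers were looked at as a check of the names, since their RNA but not their chromatin chose the nuclei. The class of the marker had the highest promoter level of all 8 for 9 of 9 erythroid, 13 of 13 granulocyte, 10 of 11 B-lymphoid, 7 of 11 reticular, 6 of 9 osteoblast, 10 of 12 chondrocyte, 8 of 9 mural and 6 of 11 macrophage markers with a peak. Slc4a1, the anion exchanger of red cells, had 141 CPM in erythroid nuclei, 0.281 in osteoblast and 0 in reticular, granulocyte and B-lymphoid nuclei. Camp, a granule peptide of neutrophils, departed from its RNA. Its peak (chr9:109849175-109850088) had 80.4 CPM (55.0 to 114) in granulocyte but also 42.2 CPM (37.4 to 47.5) in reticular nuclei, from 179 of 360 of them, while its RNA stood at 6315 and 32.8 RNA CPM.

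Agreement with RNA was asked over 8110 genes, leaving out gating markers, whose nearest promoter peak had at least 50 counts and whose RNA had at least 20 UMIs over both sides. Of all 8765 genes with enough RNA, 25.7% were called higher and 11.9% lower in reticular nuclei, 6.15% and 39.4% in osteoblast, 21.7% and 37.6% in erythroid, 13.0% and 37.5% in granulocyte, and 33.6% and 25.4% in B-lymphoid nuclei. Where both promoter and RNA were called, the direction was the same for 95.2% of 623 genes in reticular, 94.7% of 486 in osteoblast, 89.2% of 3293 in erythroid, 82.9% of 1598 in granulocyte and 92.4% of 1365 in B-lymphoid nuclei, and for 89.3% of all such calls together. The agreement was one of direction, and far fewer promoters than transcripts passed 2-fold. Among genes with RNA called higher, the promoter was called higher for 15.9% in reticular, 29.98% in osteoblast, 73.1% in erythroid, 31.1% in granulocyte and 15.1% in B-lymphoid nuclei, against 4.94%, 2.74%, 38.9%, 13.9% and 8.93% of all 8110.

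The ratios of whole classes were shifted, by -0.37 (reticular) to 0.76 (erythroid) on the log2 scale for the median promoter and by -0.73 (osteoblast) to 0.45 (B-lymphoid) for the median RNA. After both were centred on their medians, the share in the same direction was 94.7%, 94.8%, 96.1%, 84.2% and 95.2% in the same order. The promoter was then called higher for 36.1% of genes with higher RNA in reticular nuclei, against 8.98% of all, and for 11.6% in erythroid nuclei, against 3.85%. The agreement in direction was thus kept under centring, whereas the high erythroid share of promoters called higher was not. CpG content again divided the genes. In reticular nuclei 41.4% of CpG-poor but 10.2% of CpG-rich promoters were called higher where the RNA was, in osteoblast nuclei 53.9% and 21.2%, in granulocyte nuclei 54.3% and 26.7%, and in B-lymphoid nuclei 44.1% and 12.1%. Erythroid nuclei had 67.1% and 73.7%.

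**Figure D4:**
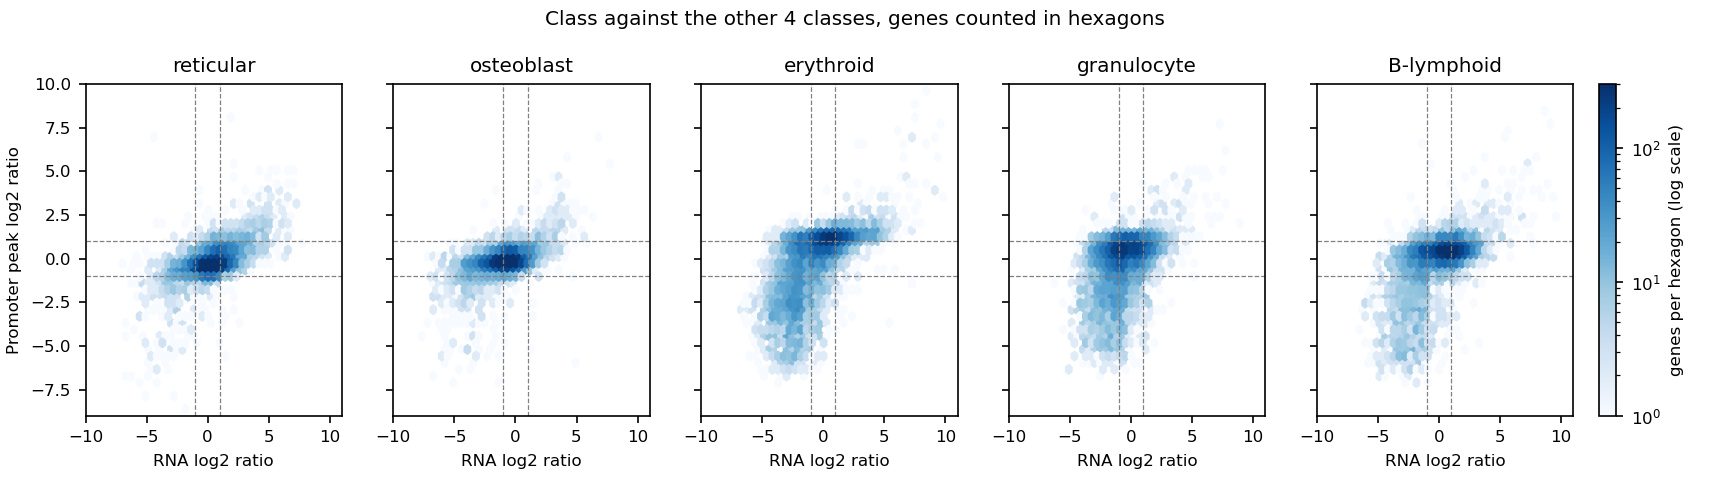
Log2 ratio of RNA (horizontal axis) and of the nearest promoter peak (vertical axis) of a class to the other 4 classes for 8110 genes, counted in hexagons on a log color scale, with dashed lines at 2-fold. Most genes spread along the RNA axis within 2-fold on the promoter axis, and of those past both lines 95.2% in reticular and 82.9% in granulocyte nuclei lay in the same direction.

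Across the 20296 genes with a start-near peak, the rank correlation of promoter counts and UMIs within a class was 0.63 in reticular, 0.64 in osteoblast, 0.61 in erythroid, 0.46 in granulocyte and 0.58 in B-lymphoid nuclei. Over genes with at least 1 UMI in the class it was 0.43, 0.40, 0.42, 0.20 and 0.27. These genes share the library and its depth and are not replicates. Counts in called peaks over the gene body and 3 kb upstream gave 0.67, 0.67, 0.63, 0.51 and 0.59. The study's methods used all ATAC reads of such a span, which is a different measure. In reticular nuclei the median promoter level was 1.93 CPM for genes without a UMI and 40.6 CPM for the 3385 genes of most UMIs, when those with RNA were cut into 4 groups.

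Some genes changed RNA without their promoter. Those with RNA at least 4-fold higher and the promoter ratio nearest to 0 were Znrf1, Rnf149 and Itpk1 in reticular, Stard9, Farp2 and Fkbp11 in osteoblast, Agpat4, Pnpla7 and Fam53b in erythroid, Tkt, Bri3 and Pak1 in granulocyte, and Vrk1, Grk2 and Hmgb2 in B-lymphoid nuclei. Of these 15 peaks 13 were open in all 5 classes, while that of Pak1 was open in 4 and that of Fkbp11 in 3. Farp2, a guanine exchange factor, had RNA at 278 RNA CPM in osteoblast and 35.1 in reticular nuclei, while its promoter had 68.6 and 59.5 CPM. Tkt, an enzyme of the pentose phosphate pathway, had RNA at 686 RNA CPM in granulocyte and 62.3 in reticular nuclei, with 42.7 and 38.5 CPM at the promoter. Grk2, a kinase of activated receptors, had RNA at 670 RNA CPM in B-lymphoid and 58.9 in reticular nuclei, with 46.7 and 37.97 CPM at the promoter. In each of these examples the promoter levels of the classes named differed by much less than the RNA, which is what the rule that picked them asked for.

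The most open promoters without RNA were those of Gm15612, Gm16278, Sept2, Gm17705 and Gm26805, with 0 or 1 UMIs and 4636 to 5572 counts each. Each of these peaks also lay at the start of a gene on the opposite strand that had RNA, namely Abtb1 (85 UMIs), Rab40c (88), Hdlbp (1164), Prrc2a (602) and Tsga10 (86). Which of the genes on both strands a shared peak serves cannot be told from its counts. At the other end, Gm19951 (10306 UMIs), Hba-a2 (7426), Hba-a1 (5204), Mical3 (1536) and Rpl7 (1310) had most RNA and no promoter peak. Hba-a1 and Hba-a2, the near-identical alpha-globin genes, had 28475 and 38269 RNA CPM in erythroid nuclei, for which they are gating markers, and reads shared between such copies make both RNA and chromatin values uncertain.

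Separate start-near peaks of a gene could be open in different classes. Whether each such peak acts as a start was not tested. Of 2955 genes with at least 2 start-near peaks tested, 196 (6.63%) had peaks called in opposite directions in erythroid nuclei. The numbers were 191 (6.46%) in B-lymphoid, 143 (4.84%) in granulocyte, 79 (2.67%) in reticular and 70 (2.37%) in osteoblast nuclei. Over all start-near peaks, 26.0% were called higher and 40.5% lower in erythroid, and 14.8% and 24.7% in B-lymphoid nuclei. These shares were 12.8% and 34.3% in granulocyte, 13.1% and 10.8% in reticular and 7.48% and 12.5% in osteoblast nuclei. Pairs of peaks from unlike genes were not drawn, so whether opposite calls were more frequent within a gene was not tested. The genes given as examples were picked, after their values were seen, as those with the most opposed ratios in a class. Tfeb, a regulator of lysosome genes, had a peak with 91.0 CPM in B-lymphoid and 17.6 in granulocyte nuclei, and another 15.6 kb away with 9.01 CPM in reticular and 0 in B-lymphoid nuclei. Syne1, which ties the nucleus to the cytoskeleton, had a peak with 64.1 CPM in granulocyte nuclei and 0.819 or less in the other classes, while a peak 9.05 kb away had 20.7 to 32.8 CPM in those and 2.51 in granulocyte nuclei. Its RNA stood at 1470 RNA CPM in granulocyte and 112 in reticular nuclei. Smarca2, a chromatin remodeling ATPase, separated the stromal classes, with 13.2 CPM in reticular and 0 in osteoblast nuclei at the first peak and 1.39 and 14.6 CPM at a peak 14.1 kb away. The RNA of such a gene is counted over all its transcripts, and promoter and RNA ratios of 1 peak need not agree for it.

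**Figure D5:**
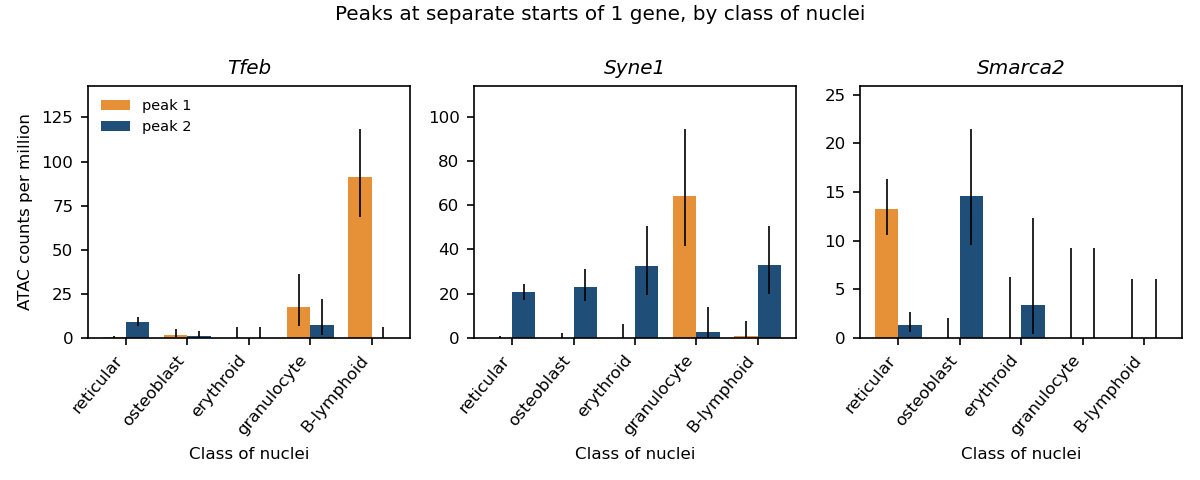
ATAC CPM with exact Poisson 95% intervals (vertical axes) at 2 peaks of Tfeb, Syne1 and Smarca2 in the 5 classes (horizontal axes), in orange for the peak at 91.0 CPM in B-lymphoid (Tfeb), 64.1 in granulocyte (Syne1) and 13.2 in reticular nuclei (Smarca2). The blue peaks were open mainly in other classes.

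The letters of the motifs differed between promoter peaks of different kinds. In the central 300 bases the GC box was found in 49.6% of start-near, 6.93% of between-start and 5.19% of distal peaks, and in 12.4% of all autosomal peaks. Among start-near peaks open in all 5 classes it stood in 78.1% and the ETS letters in 22.7%, against 24.4% and 3.61% of those open in 1 class. The AP-1 letters went the other way, with 7.66% of start-near, 17.4% of between-start and 16.6% of distal peaks, and 2.25% of start-near peaks open in all classes. Start-near peaks called higher in granulocyte nuclei held the PU.1 letters in 5.62% of cases and those called higher in B-lymphoid nuclei in 4.84%, against 3.34% of all start-near peaks and 5.0% of those open in 1 class. The RUNX letters stood in 24.98% of those called higher in osteoblast and 23.4% in reticular nuclei, against 17.6% of all start-near peaks and 24.9% of those open in 1 class. The GATA letters stood in 4.78% of start-near peaks called higher in erythroid nuclei and in 5.997% of all start-near peaks. Motif letters vary with base composition, and the median GC content was 64.8% in the erythroid group and 59.2% over all start-near peaks. A TATA box 40 to 20 bases before a start stood in 1.57% of the 17650 start-near peaks that covered a start, and in 1.13% of those open in all classes. The GC boxes of Polr2a and the GATA letters before Kel, printed above, are single cases of such matches.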

How the data were processed

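Nuclei were profiled by 10x Multiome, and the authors deposited 1 matrix of counts for genes (UMIs) and peaks (transposase cut sites), made with Cell Ranger ARC (2.0.0 in the header) on mm10 with the tdTomato sequence added. A separate peak list was deposited, and its caller is not given in the sources used here. A barcode was kept as a nucleus from 500 UMIs and 1000 ATAC counts upward (4663 barcodes) when no more than 10% of its UMIs were mitochondrial (1427), and the 16 with the highest Scrublet scores were removed as likely doublets (Scrublet itself marked 5), leaving 1411 with 4025855 UMIs and 38750597 ATAC counts. A nucleus entered a class when its UMIs of at least 2 markers exceeded those expected from free RNA by a score of at least 3. The profile of free RNA came from 62603 barcodes that held between 100 and 400 UMIs but under 500 ATAC counts. The 97 gating markers were taken from a list, and the score was set after the data were seen. The members and the 15 gene lists (291 genes) were chosen with earlier results of these data known.

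Counts were summed per class, and 84.4% of ATAC counts were even, so exact binomial and Poisson intervals (95%) were taken on 0.5 of the counts. Peaks (at least 50 counts) and genes (at least 20 UMIs) were called at 2-fold with 0.5 counts added. No test between groups was possible with 1 library. The genes named were, per class, the 5 highest peak ratios, the 3 highest joint ratios of peak and RNA and the 3 with RNA at least 4-fold higher and the peak ratio nearest 0; the 10 peaks of most counts; the 5 most open genes without RNA and the 5 of most RNA without a peak; and up to 4 genes a list and 3 markers a class. Some genes that the rule names are not reported here. Genes outside this rule were chosen after their values were seen. Sequences came from RefSeq's mm10 genome and starts from GENCODE. Python 3.11.15, scanpy 1.11.5, scipy 1.17.1 and pysam 0.24.0 were used, and the code was tested on simulated data. Other distances, filters, gates, folds and gene assignments were tried.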

Additional observations from a re-analysis of the deposited data

How the results depend on the processing

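No paired analysis was possible because there was 1 library and no replicate. The share of counts in promoter peaks, 54.3%, was 52.6% at 500 bases, 56.6% at the wider distance, 52.9% by peak centre, 49.98% for whole peaks inside, 48.0% over nuclei with a count, 53.6% at a mitochondrial limit of 20%, 53.26% without that limit, 53.8% at higher minimums of UMIs and ATAC counts and, in alternatives chosen after seeing the data, 49.9% for start-near peaks and 53.26% without the 3 peaks of most counts. The median class share, 63.2%, was 63.0% with a stricter gate, 61.6% with Leiden clusters and 62.2% at the 20% limit. The promoter peaks called higher, 16832 over the 5 classes, were 27054 at 1.5-fold, 8160 at 3-fold and 25775 with at least 20 counts. Single classes moved more: osteoblast nuclei had 2215, but 587 over nuclei with a count, 4686 at the 20% limit and 4123 with equal weight of the other classes, and erythroid nuclei had 4628, but 1314 at 3-fold and 2853 with equal weight. The share of genes with the same direction, 89.3%, was 90.5% for the sum of peaks, 92.8% for gene bodies, 88.3% for all genes of a peak, 88.1% at lower and 90.9% at higher minimums. The rank correlation, 0.614 as the median class, was 0.628 for the sum of peaks and 0.40 over genes with at least 1 UMI (0.20 in granulocyte and 0.27 in B-lymphoid nuclei). The peaks open in all 5 classes stayed within 1.5 times of 8454. The order of the class shares was not kept, since granulocyte nuclei (62.2%) fell below B-lymphoid nuclei (63.4%) at the 20% limit and osteoblast nuclei (50.87%) below reticular nuclei (50.9%) with Leiden clusters. Depth limits the blood classes, where 0 counts allow up to 9.27 CPM in granulocyte nuclei. It limits low RNA CPM too, since erythroid, granulocyte and B-lymphoid nuclei held 155190, 71421 and 95531 UMIs.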
